A study of Mus musculus with 12 samples.

Results

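The genes described here are 34 genes of the lysosome and of autophagy, measured in mouse liver on Affymetrix GeneChip arrays. They were taken by name, 15 as lysosomal hydrolases and their activators, 4 as lysosomal membrane proteins, 2 as transcription factors and 13 as autophagy machinery. Each was read from a probe set annotated to that 1 gene, the one with the highest mean over the 12 arrays. All 34 were found among the 18193 genes tested, and 25 of them had more than 1 probe set.

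The study holds 3 groups of 4 arrays, from the livers of C57Bl/6 mice aged 3 months. The first group is Atp7b-/- mice given supplemental zinc, the second is Atp7b-/- mice without it, and the third is wild type mice. Atp7b moves copper out of hepatocytes, and its loss in people causes Wilson disease, in which copper builds up in the liver. The sources used here name neither the allele that disrupts the gene nor the sex of the animals, and say nothing of how much zinc was given, in what form or for how long. The labels say that 4 mutant mice received zinc and do not say whether the other arrays came from separate animals, so the p-values measure the spread between arrays, which may be technical in part. Whole liver was used, and fewer cells of a type cannot be told apart from less RNA per cell.

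The lysosome is the acidic organelle in which cells take apart proteins, glycans and lipids with soluble hydrolases. Its limiting membrane carries heavily glycosylated proteins, transporters, channels and the proton pump that keeps the lumen acid. In autophagy, a membrane grows around cytoplasm or an organelle, closes into an autophagosome and fuses with the lysosome. Ulk1 starts the process, a lipid kinase complex built on Becn1 marks the membrane, and 2 conjugation systems that use Atg7 attach Atg12 to Atg5 and proteins of the LC3 and Gabarap families to the growing membrane. Tfeb and Tfe3 are related transcription factors that bind the CACGTG motif found in the promoters of many lysosomal genes. In liver cells exposed to copper, lysosomes are a known place of copper storage.

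Promoter sequences are shown for 6 genes, since the transcription factors among the 34 read the letters CACGTG. Ctsd, Gla and Lamp1 carry the motif, and Hexa, Uvrag and Gusb do not. All of these but Lamp1 changed in the untreated mutant. Each sequence comes from RefSeq on build GRCm38.p6 and covers the 250 bases before and 50 bases from an annotated transcript start, 300 bases in all. For Uvrag that start lies just inside the outer end of the gene, and for the other 5 it is the end of the gene itself. They run 5′ to 3′ along the gene's own strand, and the capitals mark CACGTG, which reads the same on both strands. The places are chr7:142387778-142388077 on the minus strand for Ctsd, chrX:134600956-134601255 on the minus strand for Gla, chr8:13158911-13159210 on the plus strand for Lamp1, chr9:59539290-59539589 on the plus strand for Hexa, chr7:99141095-99141394 on the minus strand for Uvrag and chr5:130003000-130003299 on the minus strand for Gusb.
Ctsd: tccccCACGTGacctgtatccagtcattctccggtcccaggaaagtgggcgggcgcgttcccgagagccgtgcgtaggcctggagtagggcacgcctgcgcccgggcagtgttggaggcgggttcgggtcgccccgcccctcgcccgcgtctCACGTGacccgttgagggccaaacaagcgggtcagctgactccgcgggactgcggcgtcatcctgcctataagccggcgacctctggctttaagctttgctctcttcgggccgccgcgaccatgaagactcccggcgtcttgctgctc
Gla: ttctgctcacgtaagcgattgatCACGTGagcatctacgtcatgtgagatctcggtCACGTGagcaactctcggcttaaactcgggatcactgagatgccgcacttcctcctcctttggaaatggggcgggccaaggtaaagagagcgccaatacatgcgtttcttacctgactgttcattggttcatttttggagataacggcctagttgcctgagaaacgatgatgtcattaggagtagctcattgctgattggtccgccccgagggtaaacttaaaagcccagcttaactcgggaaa
Lamp1: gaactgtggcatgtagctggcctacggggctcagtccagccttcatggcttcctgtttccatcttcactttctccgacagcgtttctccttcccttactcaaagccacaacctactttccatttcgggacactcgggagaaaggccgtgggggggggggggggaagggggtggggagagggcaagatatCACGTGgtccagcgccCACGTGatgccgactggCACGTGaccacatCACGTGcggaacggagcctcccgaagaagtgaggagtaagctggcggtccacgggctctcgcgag
Hexa: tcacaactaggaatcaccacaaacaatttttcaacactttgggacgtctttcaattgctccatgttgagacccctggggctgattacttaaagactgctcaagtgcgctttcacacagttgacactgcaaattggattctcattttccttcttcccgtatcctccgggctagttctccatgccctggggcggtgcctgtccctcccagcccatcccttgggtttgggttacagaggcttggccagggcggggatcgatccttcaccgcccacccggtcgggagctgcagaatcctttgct
Uvrag: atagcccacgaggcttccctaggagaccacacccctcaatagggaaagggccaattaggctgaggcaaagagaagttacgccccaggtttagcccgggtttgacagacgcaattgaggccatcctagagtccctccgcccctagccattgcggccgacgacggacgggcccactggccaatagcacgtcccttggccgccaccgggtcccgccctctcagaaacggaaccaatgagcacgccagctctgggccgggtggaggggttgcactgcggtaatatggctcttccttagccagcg
Gusb: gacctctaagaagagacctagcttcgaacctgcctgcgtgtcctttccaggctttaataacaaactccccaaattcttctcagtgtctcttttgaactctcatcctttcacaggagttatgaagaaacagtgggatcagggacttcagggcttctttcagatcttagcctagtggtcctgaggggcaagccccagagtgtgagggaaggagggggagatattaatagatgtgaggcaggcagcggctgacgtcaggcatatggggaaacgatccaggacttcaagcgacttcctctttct

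CACGTG stood in the window of 10 of the 26 genes that had a window in the RefSeq table, and in 10 of their 31 windows (32.3%), against 7.15% of 32851 windows of the same length over all genes. The longer form TCACGTGA, which contains it, stood in 4 of the 31 windows (12.9%), against 0.974% of all windows. The 10 genes were Ctsa, Ctsd, Ctsl, Gaa, Gla, Glb1, Lamp1, Mcoln1, Atg5 and Atg7. The window of Lamp1 held 4 copies, that of Gla 2 copies of the longer form and that of Ctsd 1 copy of each form. A match of letters is a description of the window, and these data hold no measurement of binding.

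Values are log2 intensities, so a difference of 1 is a 2-fold change. Levels of different genes were not compared with each other, because probe sets differ in brightness. Calls rest on a limma fit over all 18193 genes with Benjamini-Hochberg adjustment, at an adjusted p under 0.05, and the adjusted p-values below come from it unless another setting is named. Atp7b itself served as the check of the labels. Its levels were 6.85, 6.92, 6.57 and 6.98 in the zinc-treated Atp7b-/- arrays, 7.17, 7.25, 7.11 and 6.91 in the untreated ones, and 8.51, 8.59, 8.61 and 8.69 in wild type. Every mutant array lay below every wild type array. Markers of hepatocytes were high everywhere, with a mean over 9 genes between 13.89 and 14.04 in every array.

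Of the arrays, 3 stood apart. Pancreatic acinar transcripts were present in zinc-treated replicates 2 and 3, whose means over 15 marker genes were 9.43 and 6.66, while the other 2 zinc-treated arrays had 5.5 and 5.59, untreated Atp7b-/- 5.49 to 5.87 and wild type 5.33 to 5.58. Untreated Atp7b-/- replicate 1 resembled its group least (median correlation 0.991, while the remaining 3 arrays each had 0.996). It was the highest of its group in 19 of the 34 genes and the lowest in 6.

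Other measures also moved with the groups. The mean over 18 macrophage and Kupffer cell markers was 7.36 to 7.71 in zinc-treated Atp7b-/-, 7.23 to 8.12 in untreated Atp7b-/- and 7.58 to 8.47 in wild type. The 8.12 belonged to untreated replicate 1, and the other 3 untreated arrays lay at 7.27, 7.45 and 7.23. Between untreated Atp7b-/- and wild type 10 of the 18 markers were lower by the test and 0 higher, among them Adgre1, Csf1r and Cd68 (-0.71, -0.71 and -0.65). For 6 endothelial markers the means were 7.51 to 7.69 in zinc-treated Atp7b-/-, 7.23 to 7.39 in untreated Atp7b-/- and 7.64 to 7.77 in wild type, and the untreated range did not overlap the other 2. The difference between 3′ and 5′ control probe sets, which grows as RNA degrades, was 0.54 to 0.74 in zinc-treated Atp7b-/-, 0.79 to 0.88 in untreated Atp7b-/- and 0.62 to 0.78 in wild type. RNA quality and group therefore cannot be told apart in either comparison that uses the untreated mutants.

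**Figure D1:**
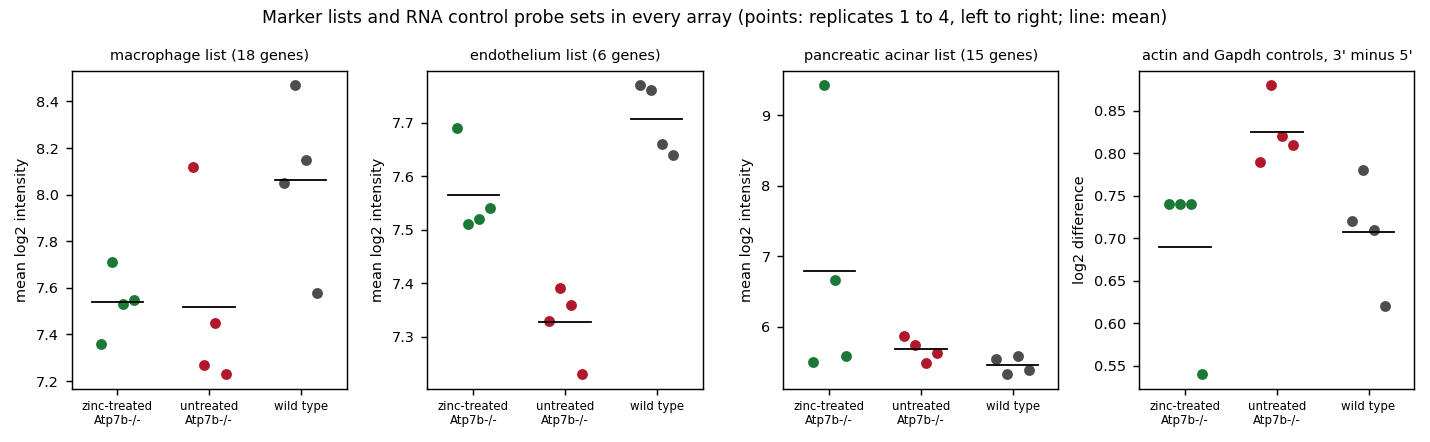
Mean log2 intensity of macrophage, endothelial and pancreatic acinar marker lists, and the 3′ minus 5′ log2 difference of actin and Gapdh control probe sets, in each of the 12 arrays, with a line at each group's mean. The control difference was above 0.78 in all 4 untreated Atp7b-/- arrays and in no other array, and pancreatic markers were high in zinc-treated replicates 2 and 3.

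The comparison of untreated Atp7b-/- with wild type liver asks what the loss of Atp7b changed. Of the 34 genes 9 rose, 3 fell and 22 did not pass the test, so that 35.3% were called, against 24.6% of all genes (14.3% higher and 10.3% lower). After quantile normalization the 12 called genes split into 7 higher and 5 lower, because Ctsz and Atg12 lost their calls and Asah1 and Atg16l1 passed as lower. Without untreated replicate 1, the array that resembled its group least, 9 genes were called, 5 higher and 4 lower. The median difference was 0.047 over the 34 genes and -0.049 over all genes. Of the 34 genes, 33 were brighter than the median of all genes. With the genes below that median left out, 11 of 33 were called (8 higher, 3 lower), against 3491 of 9097 genes. The median difference over those 9097 genes was 0.064. Among brighter genes the listed ones were thus not called more often than genes in general. Soluble hydrolases and parts of the autophagy machinery moved in both directions, and none of the 4 membrane proteins was called. In 15 of the 34 genes (11 higher, 4 lower) no untreated Atp7b-/- array overlapped a wild type array, against 26.4% of all genes. All 12 called genes were among these 15, and the other 3 were Lamp2, Gabarap and Atg16l1.

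**Figure D2:**
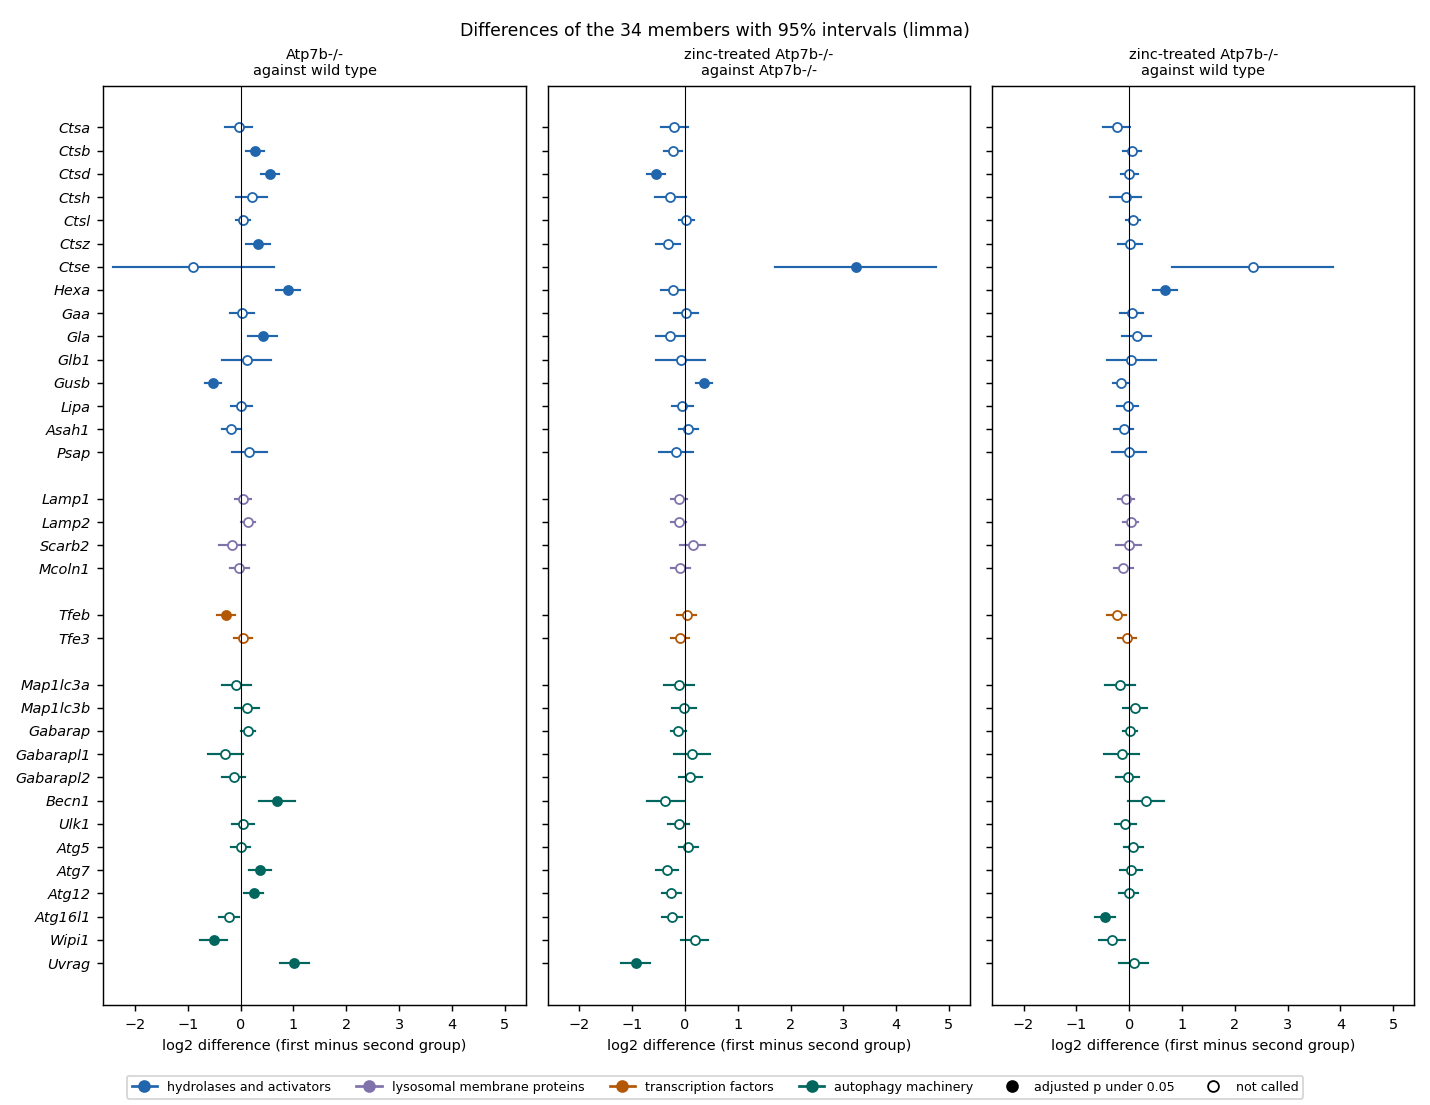
Log2 differences of the 34 genes with 95% intervals in the 3 comparisons, first-named group minus second-named group, coloured by role, with filled points for an adjusted p under 0.05. In untreated Atp7b-/- against wild type the largest called differences were those of Uvrag (1.02) and Hexa (0.90) on the higher side and of Gusb (-0.53) and Wipi1 (-0.51) on the lower side.

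Of the 15 hydrolases and activators, 5 rose, 1 fell and 9 did not pass, with a median of 0.118 (4 and 2 after quantile normalization). That was 40.0% called, against 24.6% of all genes and 3491 of 9097 genes with the dimmer ones left out. Hexa (chr9:59539540-59565109) encodes the alpha subunit of beta-hexosaminidase, which trims gangliosides. Its levels were 11.2, 10.97, 10.93 and 11.15 in untreated Atp7b-/- liver, against 10.16, 10.19, 10.4 and 9.91 in wild type. The lowest mutant array lay above the highest wild type array, and the difference was 0.90 (SE 0.11, adjusted p = 4.118e-05), or 1.87-fold.

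Ctsd (chr7:142375910-142387827), an aspartic protease and one of the main proteases of the lysosome, had 12.14, 11.94, 11.98 and 11.95 in untreated Atp7b-/- liver, against 11.49, 11.52, 11.48 and 11.32 in wild type. The groups were well separated, by 0.55 (SE 0.077, adjusted p = 0.000185), or 1.47-fold. Hexa and Ctsd have 1 probe set each, so no other probe set could be set beside them.

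The cysteine proteases Ctsb and Ctsz rose by less. Ctsb had 12.98, 12.66, 12.7 and 12.75 in untreated Atp7b-/- liver, against 12.47, 12.54, 12.45 and 12.53 in wild type, a difference of 0.28 (adjusted p = 0.0222). Replicate 1 was the highest mutant array, and the call was lost without it and without wild type replicate 1 or 3. Of the 5 probe sets of Ctsb 3 were called, while the second brightest differed by 0.006. Ctsz had 12.44, 12.08, 12.26 and 12.29 in untreated Atp7b-/- liver, against 11.98, 12.07, 11.84 and 11.85 in wild type. The lowest mutant and the highest wild type array nearly met, the difference was 0.33 (adjusted p = 0.0362), and the call was lost without any 1 of 6 arrays, untreated replicates 1, 3 and 4 or wild type replicates 1, 3 and 4.

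Gla, the alpha-galactosidase missing in Fabry disease, was the one gene of the 34 whose mean (5.79) lay below the median of all genes (6.58). It had 6.24, 6.01, 5.78 and 6.05 in untreated Atp7b-/- liver, against 5.53, 5.62, 5.6 and 5.66 in wild type, a difference of 0.42 (adjusted p = 0.0282). All mutant arrays were higher, but the call was lost without any 1 of 5 arrays, untreated replicates 1, 2 and 4 or wild type replicates 1 and 3. The 2 dimmer probe sets of Gla each differed by 0.14 and were not called, and the mean over its probe sets differed by 0.23 (adjusted p = 0.0585).

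Gusb (chr5:129989011-130003049), the beta-glucuronidase that clips glucuronic acid from glycosaminoglycans, went the other way. Its levels were 8.21, 8.3, 8.42 and 8.34 in untreated Atp7b-/- liver, against 8.73, 8.86, 8.9 and 8.88 in wild type. Every mutant array was lower, and the difference was -0.53 (SE 0.07, adjusted p = 0.00012). Its dimmer probe set also fell, by 0.94.

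The other 9 hydrolases and activators did not pass. They were the proteases Ctsa, Ctsh, Ctsl and Ctse, the glycosidases Gaa (glycogen) and Glb1 (galactosides), the acid lipase Lipa, the acid ceramidase Asah1 and Psap, the precursor of the saposins that help degrade sphingolipids. Leaving out Ctse, their differences lay between -0.17 for Asah1 and 0.21 for Ctsh, on the probe sets that stand for them. A dimmer probe set of Ctsa was called lower, at -0.36 (adjusted p = 0.0331 over all probe sets). For Ctsl, Gaa and Lipa the 95% intervals of the difference were -0.09 to 0.19, -0.20 to 0.24 and -0.18 to 0.22. A dimmer probe set of Ctsl differed by 0.77 and was not called (adjusted p = 0.332 over all probe sets). Ctsh had 12.28 in untreated Atp7b-/- replicate 1 and 11.59 to 11.87 in the other 3 untreated arrays, against 11.52 to 11.72 in wild type. The difference of Ctsh was thus carried in good part by the array that correlated least with its group.

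Ctse, an aspartic protease found mainly outside lysosomes, in endosomal compartments, had the largest SD of the 34 in untreated Atp7b-/- (1.79) and wild type (1.04), though not in zinc-treated Atp7b-/-, where Glb1 had 0.448 and Ctse 0.395. Its levels were 8.46, 8.43, 5.43 and 5.25 in untreated Atp7b-/- liver, against 7.42, 7.33, 7.07 and 9.33 in wild type. The untreated arrays fell into 2 pairs about 3 log2 units apart, and the difference of -0.89 had a 95% interval of -2.42 to 0.64 (adjusted p = 0.375).

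**Figure D3:**
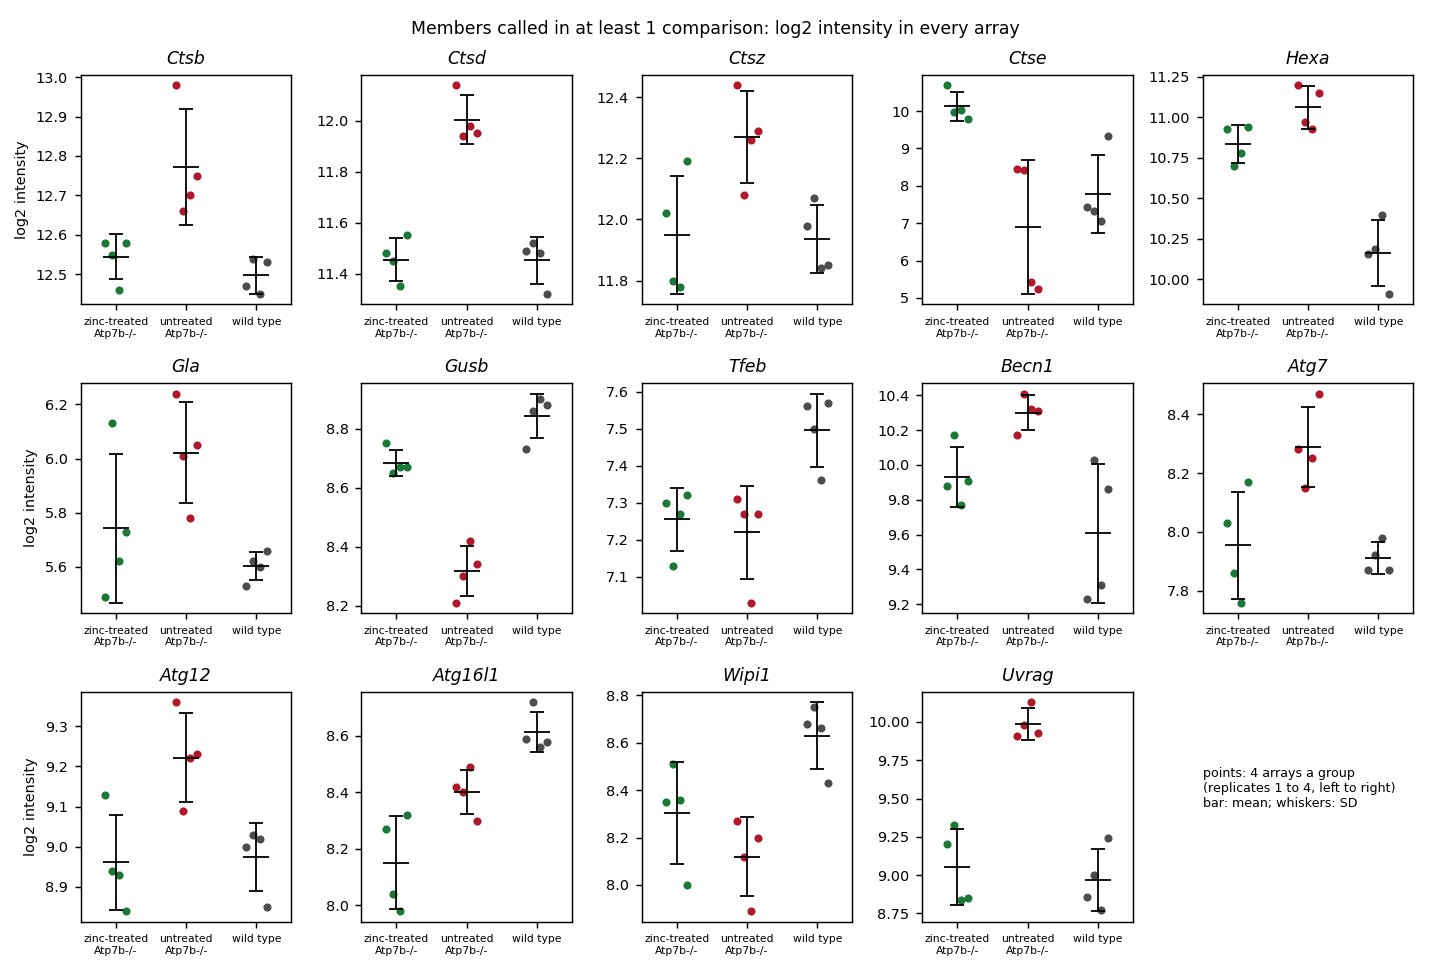
Log2 intensity of the 14 genes called in at least 1 comparison, in zinc-treated Atp7b-/-, untreated Atp7b-/- and wild type liver, with points for the 4 arrays of a group, a bar for the mean and whiskers for the SD. Hexa stayed above wild type in the zinc-treated arrays, while Ctsd and Uvrag lay within or near the wild type range there, and Ctse varied over more than 3 log2 units among the untreated Atp7b-/- arrays.

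The 4 lysosomal membrane proteins were called in none of the 3 comparisons by limma, and none had an unadjusted p under 0.05 in any, as read from the 1 probe set that stands for each. Dimmer probe sets of Scarb2 and Mcoln1 differed by -0.27 and -0.33 between untreated Atp7b-/- and wild type, at unadjusted p = 0.0122 and 0.0274, and were not called (adjusted p = 0.0548 and 0.0943 over all probe sets). Lamp1 and Lamp2 are the abundant glycoproteins that line the membrane, Scarb2 carries glucocerebrosidase to the lysosome and Mcoln1 is a calcium channel. Between untreated Atp7b-/- and wild type their differences were 0.05, 0.14, -0.16 and -0.02. Lamp2 had 13.06, 13.02, 13.05 and 13.11 in untreated Atp7b-/- liver, against 12.86, 13.02, 12.85 and 12.94 in wild type. To 2 decimals the lowest mutant array equalled the highest wild type array, and the interval of the difference ran from -0.00046 to 0.28. For Lamp1 the interval was -0.10 to 0.20, so that a rise of the size seen for Hexa or Ctsd lay outside it. Of the 34 genes, 5 lie on chromosome 8, the chromosome of Atp7b: Lamp1, Asah1, Mcoln1, Map1lc3b and Gabarapl2. In all 3 comparisons limma called 0 of the 5, and on the probe sets that stand for them 0 had an unadjusted p under 0.05. Over all genes 24.6% were called in untreated Atp7b-/- against wild type, 6.54% in zinc-treated against untreated and 7.62% in zinc-treated against wild type. A count of 0 among so few genes does not set them apart. Dimmer probe sets of Map1lc3b (-0.22) and Gabarapl2 (0.23) had unadjusted p = 0.0489 and 0.0135 in the first comparison and were not called. That of Map1lc3b had -0.23 and unadjusted p = 0.0392 in the third, also not called.

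Of the transcription factors, Tfeb fell and Tfe3 did not pass. Tfeb, which drives lysosome genes when it enters the nucleus, had 7.31, 7.27, 7.03 and 7.27 in untreated Atp7b-/- liver, against 7.56, 7.5, 7.36 and 7.57 in wild type. Every mutant array was lower, by 0.28 on average (difference -0.28, SE 0.083, adjusted p = 0.0274), and the call was lost without untreated replicate 3, without wild type replicate 1 or 4, and after median centring. Tfe3 differed by 0.05, with an interval of -0.13 to 0.22. Tfeb and Tfe3 have 1 probe set each. Transcript levels say nothing of where in the cell these proteins were.

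Among the 13 genes of autophagy machinery 4 rose, 1 fell and 8 did not pass, with a median of 0.044 (3 and 2 after quantile normalization). The share called was 38.5%, against 24.6% of all genes and 3491 of 9097 genes with the dimmer ones left out. Uvrag (chr7:98886742-99141167), a partner of Becn1 in the lipid kinase complex that matures autophagosomes and endosomes, moved most. It had 9.91, 9.98, 10.13 and 9.93 in untreated Atp7b-/- liver, against 8.86, 9.0, 8.77 and 9.24 in wild type. The arrays did not come near each other, and the difference was 1.02 (SE 0.13, adjusted p = 6.53e-05), or 2.02-fold. Uvrag has 1 probe set, so no other could be set beside it.

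Becn1, the scaffold of that complex, had 10.17, 10.41, 10.32 and 10.31 in untreated Atp7b-/- liver, against 9.23, 10.03, 9.31 and 9.86 in wild type. All mutant arrays were higher, wild type spread widely, and the difference was 0.69 (SE 0.16, adjusted p = 0.00669). A second probe set of Becn1 was as bright, with a mean of 9.946 against 9.947, and differed by 0.10 (adjusted p = 0.347 over all probe sets). Only 1 of the 5 probe sets of Becn1 was called, so the rise rests on that probe set.

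Atg7, the enzyme that activates both conjugation systems, had 8.28, 8.15, 8.25 and 8.47 in untreated Atp7b-/- liver, against 7.87, 7.92, 7.98 and 7.87 in wild type. The difference was 0.38 (adjusted p = 0.0125), the groups did not overlap, and a second of its 4 probe sets was also called. Atg12, the protein joined to Atg5, had 9.36, 9.09, 9.22 and 9.23 in untreated Atp7b-/- liver, against 9.0, 9.03, 9.02 and 8.85 in wild type. Its difference of 0.25 (adjusted p = 0.0458) was the closest to the threshold of all 12, and the call was lost in 17 of 25 other settings.

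Wipi1, which binds the lipid made by the Becn1 complex on the forming autophagosome, fell. It had 8.27, 8.12, 7.89 and 8.2 in untreated Atp7b-/- liver, against 8.68, 8.75, 8.66 and 8.43 in wild type. The groups did not overlap, and the difference was -0.51 (SE 0.12, adjusted p = 0.0067). All 6 probe sets of Wipi1 were lower and 3 of them were called. The 2 next in brightness differed by -0.30 and -0.24 and were not called, and with probe sets of names ending in _x_at, _s_at or _a_at left out the difference was -0.30 (adjusted p = 0.158).

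The 8 autophagy genes that did not pass were Map1lc3a, Map1lc3b, Gabarap, Gabarapl1 and Gabarapl2, which are the LC3 and Gabarap proteins that coat the membrane, the kinase Ulk1, and Atg5 and Atg16l1, which together direct that coating. Their differences ran from -0.29 for Gabarapl1 to 0.14 for Gabarap. Without untreated replicate 1, Gabarapl1 passed as lower, at -0.43 (adjusted p = 0.042). Gabarap had 12.4, 12.31, 12.3 and 12.41 in untreated Atp7b-/- liver, against 12.15, 12.29, 12.22 and 12.21 in wild type. Its groups did not overlap, yet the adjusted p was 0.126. For Atg5 and Ulk1 the intervals were -0.17 to 0.19 and -0.16 to 0.25.

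**Figure D4:**
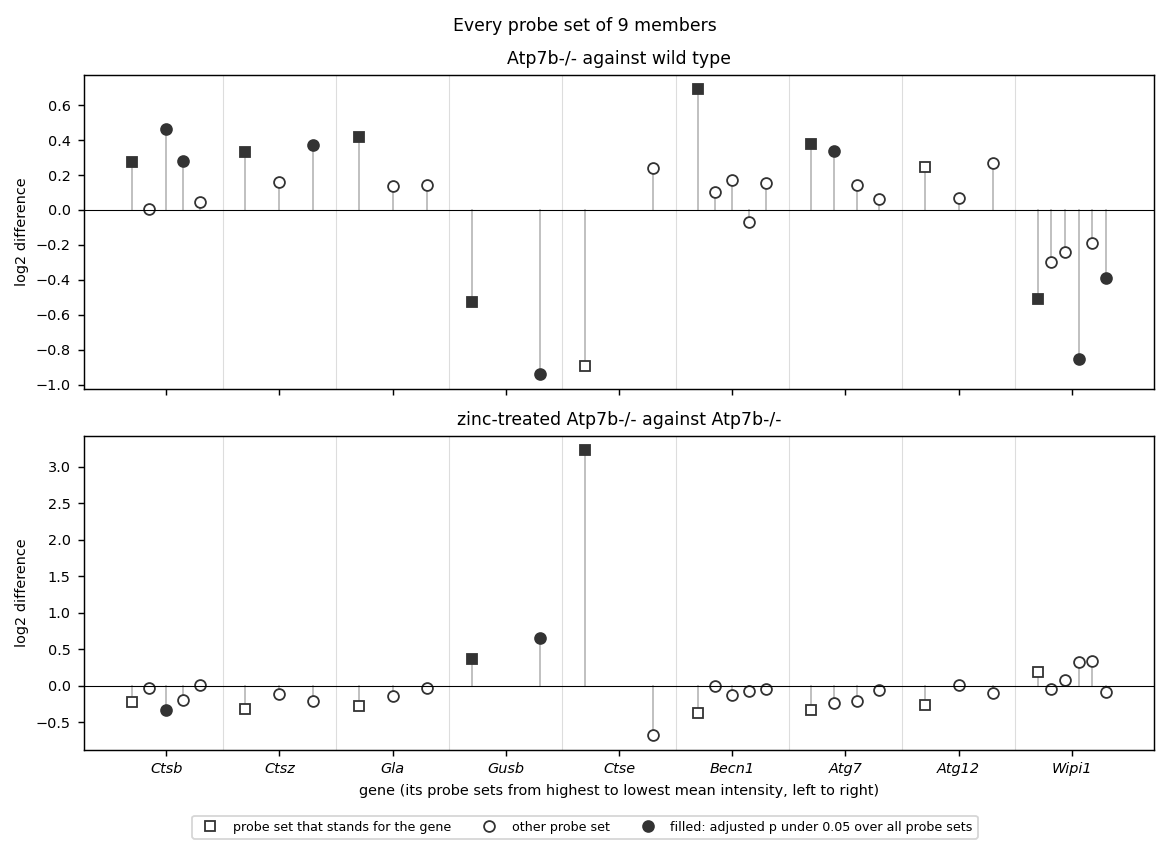
Log2 differences of every probe set of 9 genes in untreated Atp7b-/- against wild type and in zinc-treated against untreated Atp7b-/-, ordered from the brightest to the dimmest probe set within a gene, with squares for the probe set that stands for the gene and filled symbols for an adjusted p under 0.05 over all probe sets. Probe sets of Gusb and Wipi1 ran the same way in untreated Atp7b-/- against wild type, while 4 of the 5 of Becn1 were not called and those of Ctse pointed in opposite directions in both comparisons.

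The 26 genes that had a promoter window were split by the motif in untreated Atp7b-/- against wild type, where 24.6% of all genes were called. Of the 10 with CACGTG 3 were called (Ctsd, Gla and Atg7, all higher). Of the 16 without it 6 were called, of which 3 rose (Hexa, Ctsz and Uvrag) and 3 fell (Gusb, Tfeb and Wipi1). Lamp1, whose window printed above holds 4 copies, differed by 0.05. Hexa and Uvrag, whose windows hold none, had the largest called differences of the 34 in this comparison. A link between the motif and the changes was not tested.

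Zinc-treated and untreated Atp7b-/- livers were compared to see what zinc changed in the mutant. Of the 34 genes 2 rose (Ctse and Gusb), 2 fell (Ctsd and Uvrag) and 30 did not pass. The share called was 11.8%, against 6.54% of all genes (1.70% higher and 4.84% lower), and the median difference was -0.106, against 0.011 over all genes. Of the 34 differences 23 were negative, as were 8584 of 18193 over all genes. With the genes below the median brightness left out, 6 of 33 were called (2 higher, 4 lower), against 1262 of 9097 genes. The median difference over those 9097 genes was -0.056. This comparison and that of untreated Atp7b-/- with wild type share the untreated arrays, so opposite signs in them are in part built in, and the levels of the 3 groups are therefore given side by side.

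Uvrag had 9.2, 9.33, 8.84 and 8.85 in zinc-treated Atp7b-/- liver, against 9.91, 9.98, 10.13 and 9.93 in untreated Atp7b-/-. The groups were 0.93 apart (difference -0.93, SE 0.13, adjusted p = 0.00073), and the zinc-treated arrays overlapped the wild type range of 8.77 to 9.24. Against wild type the zinc-treated difference was 0.09, with an interval of -0.19 to 0.36.

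Ctsd had 11.48, 11.45, 11.35 and 11.55 in zinc-treated Atp7b-/- liver, against 12.14, 11.94, 11.98 and 11.95 in untreated Atp7b-/-. It fell by 0.55 (difference -0.55, SE 0.077, adjusted p = 0.00101), and the zinc-treated level differed from wild type by 0.0033, with an interval of -0.16 to 0.17. Without the 2 zinc-treated arrays that carried pancreatic transcripts Ctsd still passed, at -0.49, and so did Uvrag, at -0.96.

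Gusb had 8.75, 8.65, 8.67 and 8.67 in zinc-treated Atp7b-/- liver, against 8.21, 8.3, 8.42 and 8.34 in untreated Atp7b-/-. All zinc-treated arrays were higher, by 0.37 (adjusted p = 0.00752), and its second probe set was also called. Against wild type the zinc-treated level differed by -0.16, which did not pass (adjusted p = 0.199).

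Ctse had the largest difference of the 34. Its levels were 10.7, 9.98, 10.02 and 9.79 in zinc-treated Atp7b-/- liver, against 8.46, 8.43, 5.43 and 5.25 in untreated Atp7b-/-. Every zinc-treated array was higher, and the difference was 3.23 (SE 0.71, adjusted p = 0.0158), or 9.39-fold. Zinc-treated replicates 1 and 4, which had few pancreatic transcripts, gave 3.35 on their own, with an adjusted p of 0.0846 on fewer arrays. The call was also lost without untreated replicate 4, at 2.68, and as the mean of both probe sets, at 1.28. The second probe set of Ctse differed by -0.68 (adjusted p = 0.602 over all probe sets), so the probe sets did not run the same way.

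Hexa did not pass, with 10.93, 10.7, 10.78 and 10.94 in zinc-treated Atp7b-/- liver, against 11.2, 10.97, 10.93 and 11.15 in untreated Atp7b-/- (difference -0.23, adjusted p = 0.234). Atg7 had 8.03, 7.86, 7.76 and 8.17 in zinc-treated Atp7b-/- liver, against 8.28, 8.15, 8.25 and 8.47 in untreated Atp7b-/-. Its difference of -0.33 just missed the threshold (adjusted p = 0.0575). Becn1, Atg12, Ctsb, Ctsz and Gla, which had risen in untreated Atp7b-/-, differed by -0.37, -0.26, -0.23, -0.32 and -0.28, with adjusted p-values between 0.0827 and 0.218. Of the 5 probe sets of Ctsb, 1 of the dimmer ones was called lower, at -0.34 (adjusted p = 0.0261 over all probe sets). Tfeb and Wipi1, which had fallen in untreated Atp7b-/-, differed by 0.04 and 0.18 and did not pass. On the probe sets that stand for them, the remaining 21 genes not called ranged from -0.28 for Ctsh to 0.15 for Scarb2. Dimmer probe sets of Ctsl and Ctsh differed by -1.65 and -0.43 and were not called (adjusted p = 0.102 and 0.196 over all probe sets).

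Zinc-treated Atp7b-/- liver set against wild type shows where the treated mutants still differed. Hexa rose, Atg16l1 fell and 32 genes did not pass, so that 5.88% were called, against 7.62% of all genes (4.89% higher and 2.73% lower). The median difference was -0.009, against -0.023 over all genes. Hexa had 10.93, 10.7, 10.78 and 10.94 in zinc-treated Atp7b-/- liver, against 10.16, 10.19, 10.4 and 9.91 in wild type. The groups did not overlap, and the difference was 0.67 (SE 0.11, adjusted p = 0.00139), or 1.60-fold.

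Atg16l1, the protein that brings the Atg12 and Atg5 pair to the membrane, had 8.27, 8.04, 7.98 and 8.32 in zinc-treated Atp7b-/- liver, against 8.59, 8.72, 8.56 and 8.58 in wild type. The difference was -0.46 (SE 0.087, adjusted p = 0.00511), and the untreated Atp7b-/- arrays, at 8.42, 8.4, 8.49 and 8.3, lay below wild type and overlapped the zinc-treated arrays. Without the zinc-treated arrays that carried pancreatic transcripts, which are its 2 lowest, the difference was -0.32 and no longer passed (adjusted p = 0.0779). Tfeb had 7.3, 7.13, 7.27 and 7.32 in zinc-treated Atp7b-/- liver, against 7.56, 7.5, 7.36 and 7.57 in wild type. No array overlapped, and the difference of -0.24 missed the threshold (adjusted p = 0.102). Ctse, at 2.34, also showed no overlap and missed the threshold (adjusted p = 0.064). It passed without wild type replicate 4, which had the highest wild type level, at 2.85 (adjusted p = 0.0234). Wipi1 differed by -0.33 and did not pass (adjusted p = 0.116), but 2 of its 6 probe sets were called lower, at -0.53 and -0.47.

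Other genes of the same organelles were read from 7 lists that hold none of the 34, with 156 genes measured of 165 listed. In untreated Atp7b-/- against wild type 33 rose and 8 fell, or 26.3%, with a median of 0.058 (22 and 18 after quantile normalization). The share was close to the 24.6% of all genes.

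The proton pump had the highest median of the 7 lists, 0.216, and 7 of its 17 subunits rose and 0 fell (5 and 1 after quantile normalization). That was 41.2% called, against 24.6% of all genes and 3491 of 9097 genes with the dimmer ones left out. Atp6v1h, a subunit of the part that splits ATP, had 10.37, 10.22, 10.46 and 10.41 in untreated Atp7b-/- liver, against 9.85, 9.92, 9.87 and 9.95 in wild type (difference 0.47, adjusted p = 0.000371). Atp6v0a1 and Atp6v0d2, of the part in the membrane, rose by 0.50 and 1.30. The number of subunits called was 3 without wild type replicate 3 and 4 without untreated replicate 1 or 4, without wild type replicate 1, or as the mean over every probe set of a gene.

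Of 35 other hydrolases and activators 4 rose and 3 fell, against 3 and 9 after quantile normalization. Gm2a, the activator that presents ganglioside to the enzyme of which Hexa encodes a subunit, had 12.69, 12.48, 12.35 and 12.62 in untreated Atp7b-/- liver, against 11.34, 11.18, 11.27 and 11.26 in wild type (difference 1.27, adjusted p = 1.503e-07). Galns, a sulfatase of keratan sulfate, had 8.36, 8.36, 8.17 and 8.57 in untreated Atp7b-/- liver, against 7.24, 7.06, 7.13 and 7.08 in wild type (difference 1.23, adjusted p = 2.58e-07). Both rises were larger than that of any of the 15 named hydrolases.

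Ctsc, a dipeptidyl peptidase that activates proteases of immune cells, fell instead. It had 9.79, 9.76, 9.35 and 9.74 in untreated Atp7b-/- liver, against 10.84, 11.39, 10.89 and 11.33 in wild type (difference -1.45, adjusted p = 6.65e-05). Macrophage markers fell in the same comparison, by the values given above, and their part in the level of Ctsc was not tested.

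Of 22 other membrane proteins 4 rose and 2 fell (2 and 3 after quantile normalization). Laptm4b and the amino acid sensor Slc38a9 rose by 0.81 and 0.60, and Mcoln2, a channel related to Mcoln1, fell by 0.36. Of 12 genes of enzyme sorting 2 rose and 0 fell (1 and 1 after quantile normalization), namely Igf2r, the receptor that takes hydrolases tagged with mannose 6-phosphate to the lysosome (0.42), and the adaptor Gga2 (0.41).

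Of 32 other autophagy genes 5 rose and 2 fell, a share called below the 24.6% of all genes. Pik3c3, the lipid kinase that works with Becn1 and Uvrag, rose by 0.52 (adjusted p = 0.0128) and the protease Atg4a by 0.40. Another protease of LC3 proteins, Atg4c, had 7.25, 7.65, 7.48 and 7.68 in untreated Atp7b-/- liver, against 8.04, 8.28, 8.07 and 8.21 in wild type (difference -0.63, adjusted p = 0.00111). Of 10 autophagy receptors 4 rose and 1 fell (2 and 2 after quantile normalization). Nbr1, which binds ubiquitin-tagged cargo, and Retreg1, a receptor for endoplasmic reticulum, rose by 0.45 and 0.47, and the glycogen receptor Stbd1 fell by 0.73.

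Of 28 regulators 7 rose and 0 fell. The share called was close to the 24.6% of all genes, and lower than the 3491 of 9097 genes with the dimmer ones left out. Ddit4 and Sesn2, stress genes whose proteins restrain the growth kinase mTORC1, rose by 1.43 and 0.87, and Lamtor2, part of the platform that holds mTORC1 on the lysosome, rose by 0.40. Ddit4 had 9.75, 9.32, 9.32 and 9.09 in untreated Atp7b-/- liver, against 8.18, 8.02, 7.89 and 7.67 in wild type. Its arrays lay far from overlap (adjusted p = 1.101e-05).

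**Figure D5:**
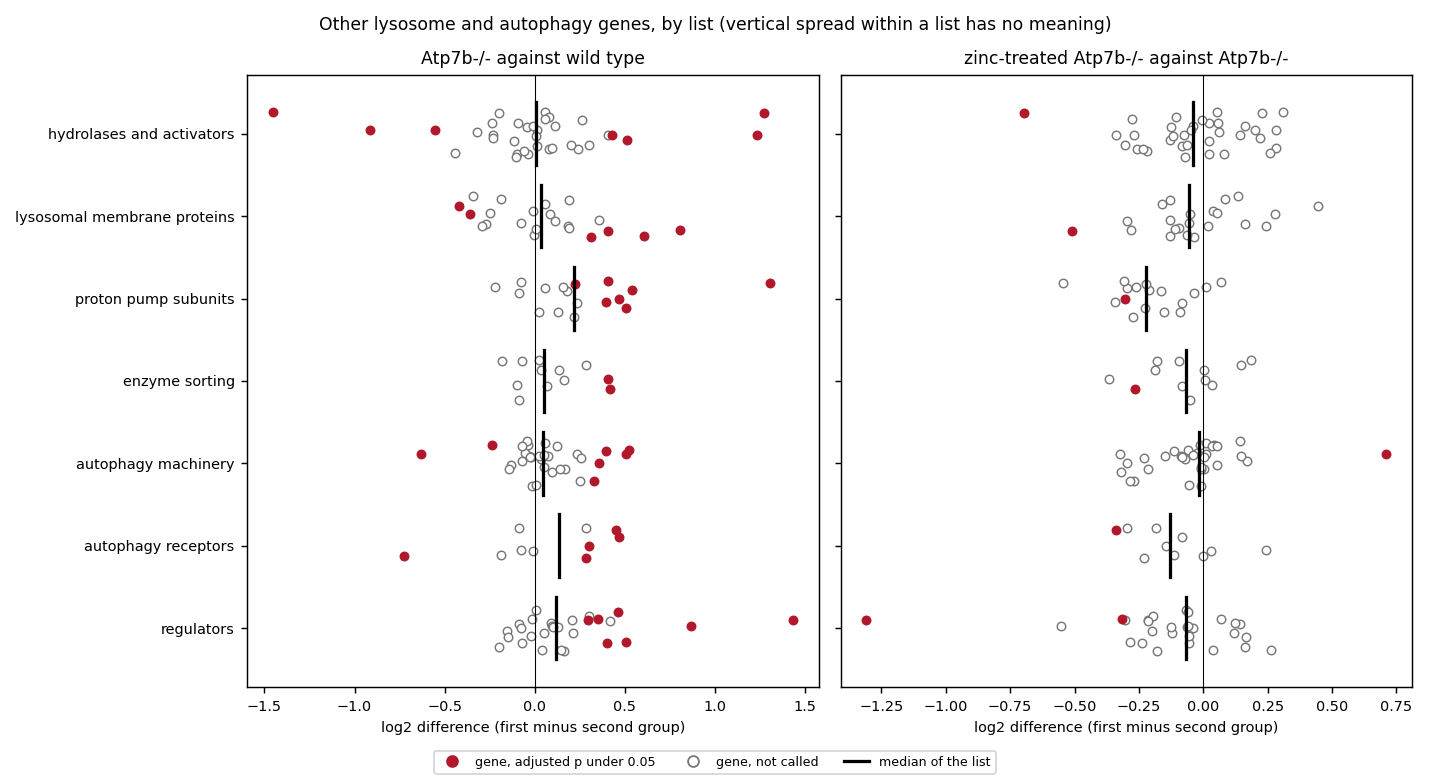
Log2 differences of 156 other lysosome and autophagy genes in 7 lists, in untreated Atp7b-/- against wild type and in zinc-treated against untreated Atp7b-/-, with filled points for an adjusted p under 0.05 and a black line at each list's median. The proton pump's median was 0.216 in the first comparison and -0.222 in the second, which shares the untreated arrays.

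In zinc-treated against untreated Atp7b-/- liver 1 of the 156 rose and 7 fell, or 5.13%, against 6.54% of all genes (4 and 3 after quantile normalization). Ddit4 had 7.87, 8.16, 8.28 and 7.93 in zinc-treated Atp7b-/- liver, against 9.75, 9.32, 9.32 and 9.09 in untreated Atp7b-/- (difference -1.31, adjusted p = 0.000183). Gm2a fell by 0.70, the chloride transporter Clcn7 by 0.51, Nbr1 by 0.34, the mTORC1 inhibitor Nprl2 by 0.32, Atp6v1h by 0.30 and Igf2r by 0.26. Atg4c rose, with 8.45, 8.22, 8.05 and 8.19 in zinc-treated Atp7b-/- liver, against 7.25, 7.65, 7.48 and 7.68 in untreated Atp7b-/- (difference 0.71, adjusted p = 0.00214).

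Set against wild type, zinc-treated Atp7b-/- liver had 6 of the 156 higher and 4 lower, or 6.41%, against 7.62% of all genes (4 and 7 after quantile normalization). Galns and Gm2a rose by 0.97 and 0.58, Slc38a9 by 0.47, Sesn3 by 0.40 and Retreg1 by 0.39. Ctsc fell by 1.14, Stbd1 by 0.73, the adaptor Gga3 by 0.36 and the receptor Tollip by 0.27. Stbd1 had 9.46, 9.01, 9.15 and 9.15 in zinc-treated and 9.35, 9.13, 9.07 and 9.22 in untreated Atp7b-/- liver, against 9.58, 9.91, 10.09 and 10.09 in wild type. The mutants' means were the same to 2 decimals, with and without zinc. By limma 0 of the 17 proton pump subunits and 0 of the 32 other autophagy genes passed here, and 5 and 4 of them had an unadjusted p under 0.05.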

How the data were processed

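Liver RNA was measured on 12 1-colour arrays. The deposited table holds log2 values that the authors had already normalized between arrays, by a method not given in the sources used here. They ran from 2.22 to 15.2, with array medians of 5.63 to 5.71, and were used as deposited. Of 45101 probe sets, 64 controls were left out of the tests, 34945 carry 1 gene symbol in the platform annotation, 932 several and 9160 none. Only the first kind was used, with the probe set of the highest mean over all arrays for each gene (18193 genes). The number of arrays limits the precision.

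The groups were fitted in R 4.3.3 with limma 3.58.1 (lmFit of group means over all 12 arrays, contrasts.fit, eBayes, two-sided). P-values were adjusted by Benjamini and Hochberg over all genes of a comparison. Intervals are 95% intervals of that fit, and the code was tested on simulated data. The genes and lists described were chosen with earlier results of these data known. All 34 genes may be named. Of the other lists, at most 3 called genes with the smallest adjusted p per list and comparison are named, and of the marker lists 3 defining genes. Promoter windows came from RefSeq (GRCm38.p6), and 26 of 34 genes had one. Alternatives covered the scaling, the choice of probe set, a filter on dim genes, the variance model, array weights, the arrays fitted, a minimum change and each array left out. After seeing the data, 2 more were added: every probe set tested on its own, and the 3 arrays that stood apart left out together.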

Additional observations from a re-analysis of the deposited data

Results flagged for a closer look

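In each group of 4 arrays, the highest and lowest value of each gene were set against the other 3 with Dixon's 95% limit. Of 102 gene and group pairs 11 exceeded it, where chance gives about 1 in 20. The gap is judged against the range of the 4 arrays, so it can be small in level where they lie close together. In untreated Atp7b-/- replicate 1, the array that correlated least with its group, Scarb2 was at 11.48 (others 11.16 to 11.19) and Ulk1 at 9.44 (9.05 to 9.11), both high, while Atg5 was low at 9.49 (9.72 to 9.76). Tfeb was low in untreated Atp7b-/- replicate 3, at 7.03 (7.27 to 7.31).

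Among the zinc-treated arrays, Asah1 was low in replicate 2 at 9.86 (9.98 to 10.0) and Tfe3 low in replicate 3 at 8.1 (8.28 to 8.29). In wild type, Ctse stood out in replicate 4 at 9.33 (7.07 to 7.42). Gabarapl2 and Atg12 were low in the same array, at 10.74 (10.93 to 10.96) and 8.85 (9.0 to 9.03). Lamp1 was low in replicate 1 at 12.55 (12.63 to 12.64), and Atg16l1 high in replicate 2 at 8.72 (8.56 to 8.59).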

How the results depend on the processing

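Each alternative was set against the deposited values for the number of the 34 genes called. In untreated Atp7b-/- against wild type (12 called) the count was 6 when probe sets with names ending in _x_at, _s_at or _a_at were left out, so that 26 of the 34 remained, 2 with a minimum change of 0.5, and 7 to 12 when 1 array was left out, lowest without wild type replicate 1. In zinc-treated against untreated Atp7b-/- (4) it was 0 with the minimum change and 3 to 6 with 1 array left out. In zinc-treated Atp7b-/- against wild type (2) it was 1 without those probe sets, 0 with the minimum change, 1 without the zinc-treated arrays carrying pancreatic transcripts and 1 without the 3 arrays that stood apart. No gene's call changed direction. Replicate numbers did not pair the arrays (same-number correlations of -0.13 to 0.237), and with the number as a replicate block the counts were 12, 4 and 2.

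Over all genes, the minimum change of 0.5 left 555, 77 and 152 genes in place of 4480, 1190 and 1386. Zinc-treated against untreated Atp7b-/- gave 1861 genes with array weights, 614 and 598 without the arrays named, and 689 without untreated replicate 4. Zinc-treated Atp7b-/- against wild type gave 699 and 881 without those arrays. Of called genes in untreated Atp7b-/- against wild type 58.2% were higher, against 49.6% after quantile normalization and 68.1% after median centring. For zinc-treated against untreated Atp7b-/- the shares were 26.0%, 40.0% and 19.7%. In untreated Atp7b-/- against wild type, Hexa and Uvrag were called in all alternatives in which they were tested. Gusb rose with zinc by 0.35 without the 3 arrays that stood apart and no longer passed. Where the text gives no cause for a lost call, the cause was not tested.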
